A study of Mus musculus with 11 samples.

Results

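The mu-class glutathione S-transferases of mouse liver were examined in animals with and without glutathione reductase. All 7 genes of the class named here, Gstm1 to Gstm7, were taken with every probe set that the platform annotation gives to them, which made 12 probe sets among the 12393 genes with a single symbol on the array. All 7 genes had at least 1 probe set that passed the filter on low values, and 10 of the 12 probe sets were tested. Transcripts were measured in livers of 5 wild-type (WT) and 6 Gsr-null male mice of C57BL/6J background, 15 to 20 weeks of age, with tissue taken between 2 and 4 in the afternoon and no treatment named in the labels. The labels give the genotype as Gsr-null and nothing further on the allele, and name the samples as biological replicates. Each liver was hybridised to 1 Affymetrix mouse array, so the number of arrays limits the precision of every value.

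Glutathione S-transferases of the mu class are cytosolic dimers that join the thiol of reduced glutathione to electrophiles, which can then be exported from the cell and excreted as mercapturates. Their co-substrate is the same reduced glutathione that glutathione reductase, the product of Gsr, regenerates from the disulfide with NADPH. Mu-class genes are abundant in liver and are known to be inducible by electrophiles through the transcription factor NRF2 and by some xenobiotics through the nuclear receptor CAR. The members are close in sequence, and a probe set whose identifier ends in _s_at, _x_at or _a_at can bind transcripts of more than 1 of them. This concerned 4 of the 12 probe sets, 2 of Gstm1, 1 of Gstm3 and 1 of Gstm6, and their values may include related genes.

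The 7 genes lie side by side on chromosome 3, in GRCm38.p6 between positions 107895854 and 108045179, a span of 149 kb. Their order by coordinate is Gstm5, Gstm7, Gstm6, Gstm3, Gstm2, Gstm1 and Gstm4, with Gstm5 on the plus strand and the others on the minus strand. The 250 bases before the annotated start are shown for Gstm3, the member that was called, for Gstm2, the member with the next largest difference, and for Gstm5, the one of these 3 windows that holds the core of the antioxidant response element to which NRF2 binds. The sequences are RefSeq's for GRCm38.p6, written 5′ to 3′ on the gene's strand, and capitals mark a match to that core, TGACNNNGC, on either strand. The windows are chr3:107969175-107969424 (minus strand) for Gstm3, chr3:107986421-107986670 (minus strand) for Gstm2 and chr3:107895604-107895853 (plus strand) for Gstm5.
Gstm3: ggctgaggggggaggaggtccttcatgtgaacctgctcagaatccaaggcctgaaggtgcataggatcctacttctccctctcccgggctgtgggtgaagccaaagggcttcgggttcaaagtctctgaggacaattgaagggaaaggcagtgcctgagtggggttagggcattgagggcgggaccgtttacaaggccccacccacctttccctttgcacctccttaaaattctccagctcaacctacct
Gstm2: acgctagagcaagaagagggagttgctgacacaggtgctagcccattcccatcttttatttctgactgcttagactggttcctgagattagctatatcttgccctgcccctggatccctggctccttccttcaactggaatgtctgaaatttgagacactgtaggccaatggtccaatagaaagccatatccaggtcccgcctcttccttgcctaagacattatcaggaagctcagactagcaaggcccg
Gstm5: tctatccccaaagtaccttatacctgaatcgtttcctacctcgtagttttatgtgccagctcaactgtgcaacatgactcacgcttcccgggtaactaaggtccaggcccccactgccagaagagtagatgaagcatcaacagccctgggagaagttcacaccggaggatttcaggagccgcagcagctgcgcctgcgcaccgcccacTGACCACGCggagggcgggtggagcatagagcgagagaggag

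Over both strands the core TGACNNNGC was found in 2 of 12 such windows of the 7 genes, 1 of Gstm5 and 1 of Gstm7, against 10.2% of 32851 windows of the same length in the RefSeq table. In Gstm5 the match starts at position -42, where -1 is the base before the start. The core GCGTG, which the aryl hydrocarbon receptor binds, was found in 3 of the 12 windows, 2 of Gstm1, which overlap and hold the same match, and 1 of Gstm5, against 28.2% of all windows. One of its matches in Gstm5 overlaps the capitals shown above. A match here is a description of the letters, and the windows of Gstm3 and Gstm2 held neither core.

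Values are the authors' GCRMA values on the log2 scale, where a difference of 1 is a doubling of signal. A probe set was tested where it exceeded 4 in at least 5 of the 11 samples, and called where limma's p-value, adjusted over all 9560 tested probe sets, was under 0.05. Gsr itself, on its probe set with the higher mean, fell by 1.83 (limma adjusted p = 1.82e-05), and its groups did not overlap. Of the hepatocyte markers 6 of 6 were tested, their median log2 level lay between 13.75 and 13.98 in WT and between 13.80 and 14.14 in Gsr-null samples, and limma called none (1 had an unadjusted p under 0.05). Of 19 tested markers of macrophages, endothelium and stellate cells limma called none (2 had an unadjusted p under 0.05). Over all tested probe sets 3.27% were higher and 5.08% lower at an unadjusted p under 0.05. The 1 tested erythroid marker, Alas2, was 0.59 higher in Gsr-null samples and not called (limma adjusted p = 0.509, unadjusted p = 0.0307). No cholangiocyte, neutrophil or lymphocyte marker passed the filter. Of these, S100a8 and S100a9, of neutrophils, read 6.63 and 6.50 in Gsr-null sample 1. In the other samples they read 2.53 to 3.63 and 2.74 to 3.49. The other neutrophil markers on the array stayed below 4 throughout. The arrays of Gsr-null samples 2 and 3 had a higher floor, with a 5th percentile of 1.79 and 1.76 against 1.53 to 1.62 elsewhere. Signal at the 3′ end exceeded that at the 5′ end, averaged over the control probe sets for Gapdh and Actb, by 0.544 to 0.703 in WT samples 2 and 4 and Gsr-null samples 1, 2 and 3, and by 1.20 to 1.75 in the other 6 samples.

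Gstm3 rose in Gsr-null livers and was the 1 member called. On its tested probe set, 1427474_s_at, the WT samples 1 to 5 read 7.93, 7.83, 8.03, 8.71 and 8.07, and the Gsr-null samples 1 to 6 read 9.16, 10.87, 10.68, 10.33, 11.06 and 9.27. Every Gsr-null sample was above every WT sample, with samples 1 and 6 nearest to the WT range. The means were 8.11 ± 0.346 (SD, n = 5) and 10.23 ± 0.824 (SD, n = 6), a rise of 2.11 (SE 0.352, limma adjusted p = 0.0265; exact two-sided permutation p = 0.00433). On the linear scale this is 4.33-fold, with a 95% interval of 2.55 to 7.36. Among all tested probe sets 0.167% were called higher and 0.575% had all Gsr-null samples above all WT samples. The tissue was bulk liver, in which more cells that express a gene and more RNA per cell cannot be told apart.

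The call of Gstm3 depended on single samples. The difference lay between 1.95 and 2.33 when each sample was left out in turn. The call was lost without WT sample 1, 2, 3 or 5 or Gsr-null sample 2, 3 or 4 (limma adjusted p between 0.0618 and 0.0973), and held without WT sample 4 or Gsr-null sample 1, 5 or 6 (0.012 to 0.0431). Without Gsr-null samples 2 and 3 together, the arrays with the higher floor, the difference was 1.84 (limma adjusted p = 0.154). It was 1.97 among the samples with a low 3′ minus 5′ difference (limma adjusted p = 0.309) and 2.21 among the others (limma adjusted p = 0.146).

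The second Gstm3 probe set, 1427473_at, is not of the kind that binds several transcripts, but it exceeded 4 in only 4 samples, all Gsr-null, and so was not tested by limma. It read 3.21, 3.06, 3.08, 3.83 and 2.65 in WT samples 1 to 5 and 3.80, 4.52, 4.56, 5.02, 5.14 and 3.91 in Gsr-null samples 1 to 6. The groups met at WT sample 4, which exceeded Gsr-null sample 1, and 5 of 6 Gsr-null samples were above every WT sample. The means were 3.17 ± 0.428 (SD, n = 5) and 4.49 ± 0.552 (SD, n = 6), a difference of 1.32 (exact two-sided permutation p = 0.00866). Since the WT values lie near the floor of the array, this difference is not a measure of the fold. On both probe sets WT sample 4 was the highest WT sample, Gsr-null sample 5 the highest and Gsr-null samples 1 and 6 the lowest of their group.

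**Figure D1:**
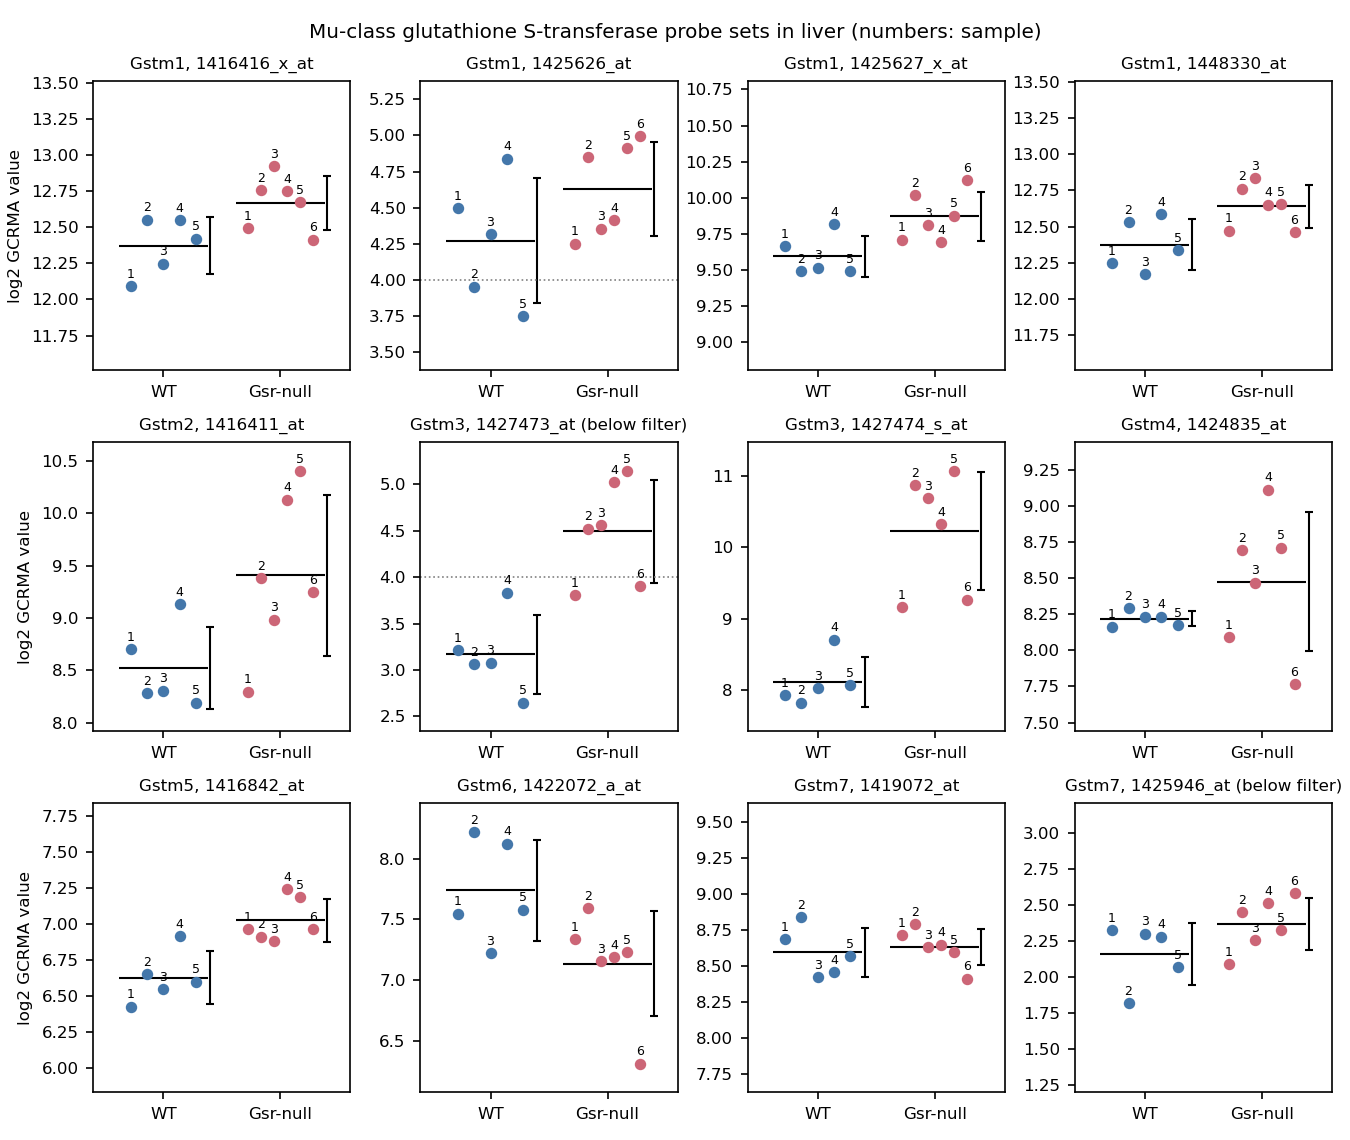
Log2 GCRMA value (vertical axis, the span differs between panels) of the 12 mu-class probe sets in 5 WT (blue) and 6 Gsr-null (red) livers; points are samples with their number, horizontal lines group means, bars beside them 1 SD, and the dotted line the filter level of 4 where it falls in the panel. Gstm3 on 1427474_s_at is the panel in which all Gsr-null samples lie above all WT samples.

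Gstm2, whose human counterpart is known to conjugate catecholamine quinones, had the next largest difference and did not pass the test. On 1416411_at the WT samples 1 to 5 read 8.70, 8.28, 8.31, 9.13 and 8.19. Gsr-null samples 4 and 5 were highest at 10.13 and 10.40, samples 2, 3 and 6 read 9.38, 8.98 and 9.24, and sample 1 read 8.30, within the WT range. The groups thus overlapped, with 4 of 6 Gsr-null samples above every WT sample. The means were 8.52 ± 0.392 (SD, n = 5) and 9.41 ± 0.767 (SD, n = 6), a difference of 0.88 (SE 0.338, limma adjusted p = 0.484). The difference was 0.18 among the samples with a low 3′ minus 5′ difference and 1.52 among the others, the set that holds Gsr-null samples 4 and 5; whether the sets differ was not tested.

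Gstm5, the member at the plus-strand end of the cluster, had a small difference and did not pass the test. On 1416842_at the WT values were 6.43, 6.65, 6.55, 6.92 and 6.60 in samples 1 to 5, and the Gsr-null values ran from 6.88 to 7.24 with a median of 6.96. WT sample 4, at 6.92, was the single WT sample inside the Gsr-null range, and it exceeded Gsr-null samples 2 and 3. The means were 6.63 ± 0.181 (SD, n = 5) and 7.02 ± 0.151 (SD, n = 6), a difference of 0.40 (SE 0.119, limma adjusted p = 0.289), or 1.32-fold with a 95% interval of 1.10 to 1.58. The difference was 0.14 among the samples with a low 3′ minus 5′ difference and 0.60 among the others; whether the sets differ was not tested.

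Gstm1, a major glutathione S-transferase of mouse liver, has 4 probe sets, and all 4 had a small positive difference that did not pass. On 1416416_x_at the WT samples read 12.09, 12.55, 12.25, 12.55 and 12.42, and the Gsr-null samples ran from 12.41 to 12.92 with a median of 12.71, so the groups overlapped. The difference was 0.30 (SE 0.13, limma adjusted p = 0.56), which is 1.23-fold with a 95% interval of 1.01 to 1.50. On 1448330_at, whose identifier marks no shared binding, the WT samples read 12.25, 12.53, 12.17, 12.59 and 12.34 and the Gsr-null samples ran from 12.46 to 12.84 with a median of 12.65. There the difference was 0.26 (SE 0.119, limma adjusted p = 0.588). The other 2 Gstm1 probe sets, 1425627_x_at and 1425626_at, differed by 0.28 (SE 0.117, limma adjusted p = 0.537) and 0.36 (SE 0.213, limma adjusted p = 0.768). The second of these reads near the filter level, with WT values of 3.75 to 4.84 and Gsr-null values of 4.25 to 5.00. Within the low and high sets of the 3′ minus 5′ difference 1416416_x_at differed by 0.17 and 0.36, 1448330_at by 0.13 and 0.34, 1425627_x_at by 0.19 and 0.34 and 1425626_at by 0.09 and 0.59. The 4 probe sets share a gene and are not 4 separate observations.

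Gstm4 was nearly constant in WT livers and spread in Gsr-null livers. On 1424835_at the WT samples read 8.16, 8.29, 8.23, 8.23 and 8.17, an SD of 0.053. The Gsr-null samples 1 to 6 read 8.09, 8.70, 8.47, 9.11, 8.71 and 7.77, an SD of 0.482. Of the 6 Gsr-null samples 4 were above every WT sample and samples 1 and 6 below every WT sample. The difference of means was 0.25 (SE 0.205, limma adjusted p = 0.89) and did not pass. It was 0.13 without Gsr-null sample 4 and 0.40 without Gsr-null sample 6. The larger spread was not tested.

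Gstm6 was the 1 member with a negative difference among the tested probe sets, and it did not pass. On 1422072_a_at the WT samples read 7.55, 8.22, 7.22, 8.12 and 7.58, and the Gsr-null samples 1 to 6 read 7.34, 7.59, 7.16, 7.19, 7.23 and 6.31. Gsr-null sample 6 was far below the rest and 3 of 6 Gsr-null samples were below every WT sample. The means were 7.74 ± 0.42 (SD, n = 5) and 7.13 ± 0.434 (SD, n = 6), a difference of -0.60 (SE 0.238, limma adjusted p = 0.494). The array of Gsr-null sample 6 also had 9094 probe sets above a log2 value of 4, against 9377 to 9603 on the others. Over the 11 samples the deviations of Gstm6 from the genotype means had a correlation of r = -0.763 with the 3′ minus 5′ difference of the control probe sets, the strongest of the 7 members. Within the low and high sets of that difference Gstm6 differed by -0.81 and -0.54. The part of the array of sample 6 in these values was not tested.

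Gstm7 gave no detectable difference. On 1419072_at the WT samples read 8.68, 8.84, 8.42, 8.46 and 8.57, and the Gsr-null samples ran from 8.41 to 8.79 with a median of 8.64. The groups overlapped throughout, and the difference was 0.04 (SE 0.113, limma adjusted p = 0.996), with a 95% interval from -0.21 to 0.28. Its second probe set, 1425946_at, read 1.82 to 2.32 in WT and 2.09 to 2.58 in Gsr-null samples, below the filter level of 4 in all 11, and gives no usable level.

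Over the family, 9 of the 10 tested probe sets had a positive difference and 1 a negative one, with a median of 0.29. Every Gstm1 probe set is among the positive ones, and the median lies between Gstm1 values of 0.28 and 0.30. Probe sets of 1 gene are not separate observations. Over all tested probe sets 43.3% had a positive difference and the median was -0.03. By limma 1 member probe set was called higher and 0 lower, where 0.167% and 0.22% of all tested probe sets were called. At an unadjusted p under 0.05 limma gave 6 member probe sets higher, of which 3 belong to Gstm1, and 1 lower, against 3.27% and 5.08% of all tested probe sets. Gstm3 on 1427474_s_at was the 1 member whose groups did not overlap upward and no member did so downward, where 0.785% of all tested probe sets did.

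The Gsr-null livers differed among themselves in which members were high. Set against the WT mean, Gstm3 on 1427474_s_at was 1.04 and 1.15 higher in Gsr-null samples 1 and 6 and 2.21 to 2.95 higher in samples 2, 3, 4 and 5. Gstm2 was 1.60 and 1.87 higher in samples 4 and 5, 0.46 to 0.86 higher in samples 2, 3 and 6 and 0.23 lower in sample 1, a value of -0.23. Samples 4 and 5 were also the highest pair for Gstm4 and Gstm5. For Gstm3 they were the highest pair on 1427473_at, whereas samples 2 and 5 were on 1427474_s_at. Samples 1 and 2 were the highest pair for Gstm6 and Gstm7. Samples 1 and 6 were the lowest pair for Gstm3, on both probe sets, and for Gstm4. The Gstm1 probe sets disagreed on the order: samples 2 and 3 were highest and samples 1 and 6 lowest on 1416416_x_at and 1448330_at, whereas sample 6 was the highest of its group on 1425627_x_at, at 10.12, and on 1425626_at, at 5.00. The range over the 6 Gsr-null samples was 1.91 for Gstm3 and 2.10 for Gstm2, against 0.88 and 0.94 over the 5 WT samples.

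**Figure D2:**
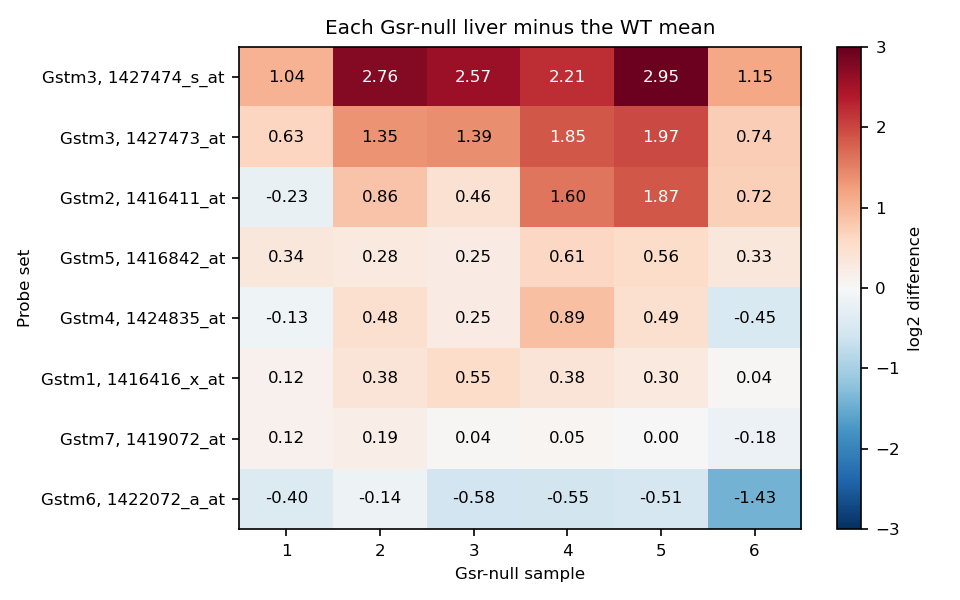
Difference of each of the 6 Gsr-null samples (columns) from the mean of the 5 WT samples, on the log2 scale, for the 8 probe sets named at the left (rows), with the value printed in each cell. Gstm3 is positive in all 6 samples on both of its probe sets, Gstm2 exceeds 1.5 in samples 4 and 5, and Gstm6 is negative in all 6.

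Whether Gstm3 differed by more than the other members was examined within arrays, from the difference between the log2 values of Gstm3 (1427474_s_at) and of the representative probe set of each other member, which is the tested one with the highest mean. These 6 comparisons were made with the call of Gstm3 already known. The same Gstm3 values enter all 6, so they are not 6 separate results. Relative to Gstm2, Gstm3 was 1.23 higher in Gsr-null than in WT samples (SE 0.319, exact two-sided permutation p = 0.00649). The shift was 1.82 relative to Gstm1 (SE 0.335), 1.86 relative to Gstm4 (SE 0.29) and 1.72 relative to Gstm5 (SE 0.373). It was 2.72 relative to Gstm6 (SE 0.364) and 2.08 relative to Gstm7 (SE 0.403). The groups did not overlap in any of the 6 comparisons, the exact permutation p lay between 0.00216, the smallest these samples can give, and 0.00649, and each was 0.00649 after Benjamini-Hochberg adjustment over the 6 comparisons. A difference within an array shows that 2 probe sets changed unequally, not that either stayed constant.

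**Figure D3:**
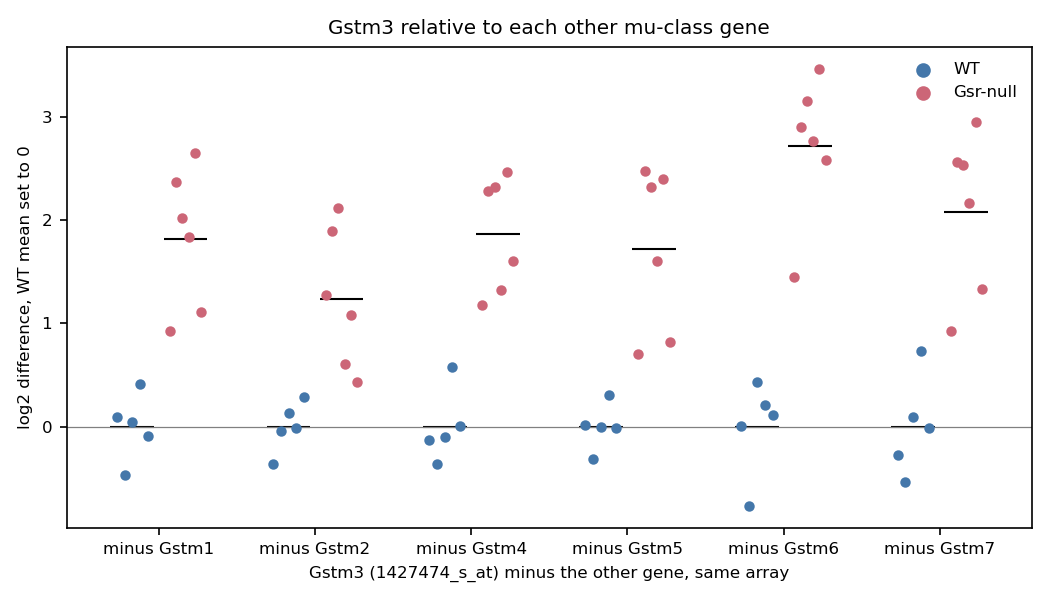
Log2 value of Gstm3 (1427474_s_at) minus that of each other mu-class gene on the same array, with the WT mean set to 0, in 5 WT (blue) and 6 Gsr-null (red) samples; horizontal lines are group means. In all 6 comparisons the Gsr-null samples lie above the WT samples, with mean shifts of 1.23 to 2.72.

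Glutathione transferases of other classes gave no call. Of the 13 tested genes of the alpha, pi, theta, zeta, omega, kappa and microsomal classes, 4 had a positive and 9 a negative difference. The median was -0.05 and limma called none. At an unadjusted p under 0.05, which 3.27% of all tested probe sets met upward and 5.08% downward, 1 gene was lower. That gene was Gstt2, a theta-class enzyme, which read 8.38 to 9.04 in WT samples. In Gsr-null samples 4 and 5 it read 8.88 and 8.70, within the WT range, and in samples 1, 2, 3 and 6 it read 6.61, 6.12, 7.29 and 6.81. Its difference was -1.31 (SE 0.463, limma adjusted p = 0.419). Gsta3, Gstp1 and Mgst1, transferases of the alpha, pi and microsomal classes, differed by -0.10, -0.04 and 0.04. Mgst2 and Hpgds, at most 2.51 on average in either group, did not pass the filter.

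**Figure D4:**
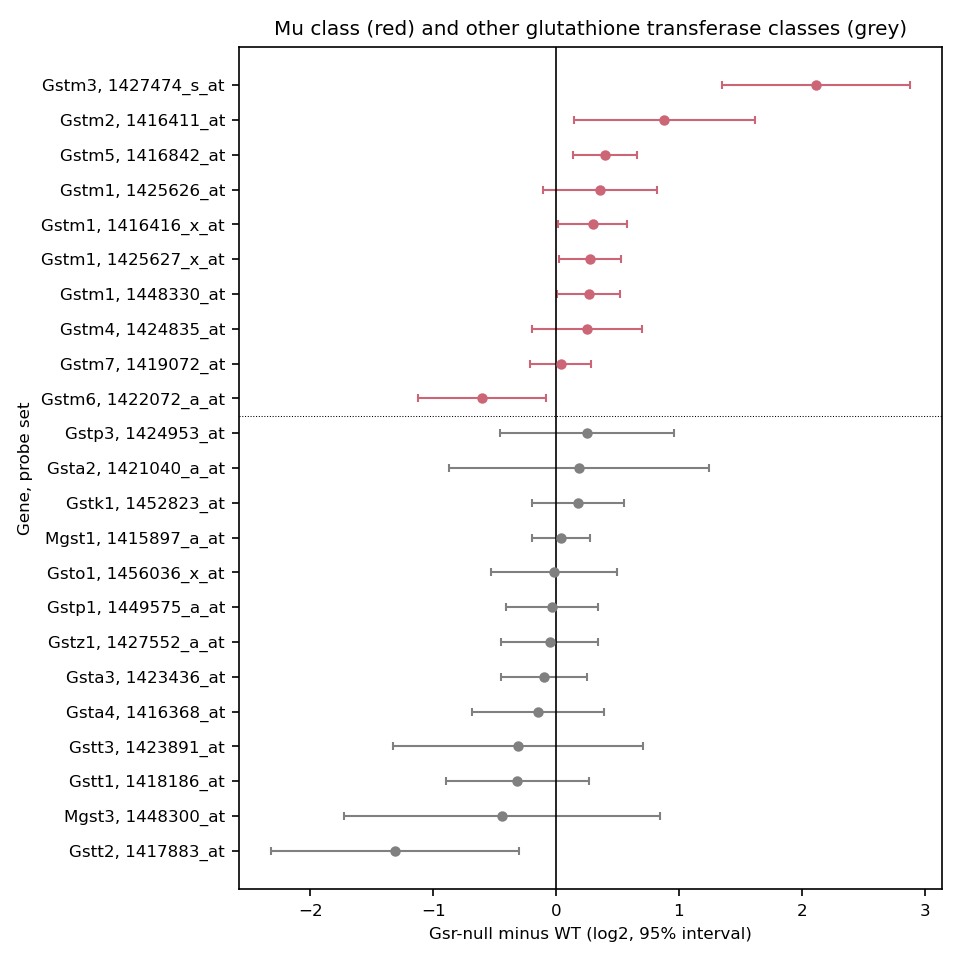
Gsr-null minus WT difference on the log2 scale (points) with limma's 95% interval (bars) for the 10 tested mu-class probe sets (red) and for 13 tested genes of other glutathione transferase classes (grey), each labelled with gene and probe set. The interval of Gstm3 runs from 1.35 to 2.88, above those of the other mu-class probe sets except that of Gstm2, which reaches 1.62.

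The genes that make glutathione, export its conjugates or are induced together with mu-class transferases showed no call other than Gsr. Of 7 tested genes of glutathione synthesis and recycling, Gsr was the 1 called by limma and 2 had an unadjusted p under 0.05. The other of these was Ggct, a gamma-glutamylcyclotransferase, at a difference of 0.85 (SE 0.322, limma adjusted p = 0.475). Gclc and Gclm, the subunits of the rate-limiting ligase, differed by 0.13 and 0.11. Of 7 tested genes of conjugate export and mercapturate formation none was called or had an unadjusted p under 0.05 by limma, and the smallest p was that of Abcc3, a basolateral conjugate exporter, at a difference of 0.49 (limma adjusted p = 0.723). Of 18 tested NRF2 targets other than glutathione transferases, 13 had a positive difference, with a median of 0.13. Over all tested probe sets 43.3% had a positive difference. Limma called none of these targets, and 4 had an unadjusted p under 0.05. Ces1g, Srxn1 and Ugdh were the higher ones and Ces2a the lower one. The groups of Srxn1 did not overlap, with WT samples up to 7.73 and Gsr-null samples from 7.74. Upward this held for 0.575% of all tested probe sets. Ces1g, a carboxylesterase, came nearest, 1.29 higher (SE 0.271, limma adjusted p = 0.0863), with WT sample 1 inside the Gsr-null range. Of 12 tested targets of CAR, PXR and AHR, 5 had a positive and 7 a negative difference. Limma called none and 3 had an unadjusted p under 0.05. The smallest p was that of Cyp3a25, a cytochrome P450, at 0.35 (limma adjusted p = 0.453). The others were the cytochromes P450 Cyp2c37 and Cyp3a13, at -0.71 and -0.72 (limma adjusted p = 0.487 and 0.513). Of all tested probe sets 3.27% were higher and 5.08% lower at an unadjusted p under 0.05.

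Of 11 tested regulators of these responses limma called none. At an unadjusted p under 0.05, which 3.27% of all tested probe sets met upward and 5.08% downward, 1 was lower. This was Bach1, a repressor that competes with NRF2 at antioxidant response elements, with a WT mean of 9.33 ± 0.305 (SD, n = 5) and a Gsr-null mean of 8.53 ± 0.487 (SD, n = 6), a difference of -0.80 (SE 0.232, limma adjusted p = 0.28). Nfe2l2, which encodes NRF2, and Keap1, its cytosolic inhibitor, differed by -0.20 and 0.16. In the lists of liver zonation limma called 1 of 8 tested pericentral and 1 of 8 tested periportal genes, both higher. Among all tested probe sets 0.167% were called higher and 0.22% lower. The median differences of these lists were 0.15 and 0.05. The pericentral gene was Rhbg, an ammonium transporter, at a difference of 1.40 (limma adjusted p = 0.0252). It read 3.61 to 4.54 in WT and 5.13 to 6.13 in Gsr-null samples. Since it passed the filter only with the Gsr-null samples, this difference is not a measure of the fold. The periportal gene was Aldh1b1, a mitochondrial aldehyde dehydrogenase, at 1.20 (limma adjusted p = 0.013).

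Genes beside the cluster gave no call. Of the 10 measured genes on each side, in the gene order of GRCm38.p6, limma called 0 of 20 and gave 0 an unadjusted p under 0.05. Their differences ran from -0.25 to 0.20 with a median of -0.01. Ahcyl1 and Ampd2, the nearest measured genes on either side, differed by 0.15 and -0.01, and no gene that is not a member was measured within the cluster.

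The genes whose deviations from their genotype mean were most like those of Gstm3 and of Gstm1 over the 11 samples were sought among 6015 tested genes outside the cluster. For Gstm3 they were Cptp, a ceramide-1-phosphate transfer protein, Tubb2a, a beta-tubulin, Ankmy2 and Pdlim5, with Pearson's r of 0.863, 0.86, 0.85 and 0.85 as measures of likeness. Tubb2a was 1.62 higher in Gsr-null samples (limma adjusted p = 0.421), and the other 3 differed by -0.15 to 0.25. For Gstm1 they were Rassf8, Mocs2, an enzyme of molybdenum cofactor synthesis, Psmd5 and Ier2, with r of 0.959, 0.951, 0.948 and 0.93. Each r was picked as among the highest of 6015 over 11 samples. Whether unrelated genes would reach such values was not tested. Deviations of Gstm1 also followed the 3′ minus 5′ difference of the control probe sets, with r = -0.602, and those of these 4 genes did so with r of -0.725 to -0.519, whereas for Gstm3 it was -0.11; the part of the control difference in the likeness was not tested.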

How the data were processed

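RNA from 11 livers was measured on single-colour Affymetrix arrays. The values are log2 probe set values that the authors computed with GCRMA, per the submitters' processing notes; no version of it is named there, and the base of the logarithm is read from the range of the deposited values. GCRMA corrects background by probe sequence, so values near the floor compress differences. The deposited table holds 22690 probe sets, of which 64 controls were left out; genes were named from the platform annotation where a probe set has 1 symbol. Probe sets above 4 in at least 5 samples (9560) entered 1 linear model (lmFit and eBayes of limma 3.58.1, R 4.3.3) with genotype as the single term and Benjamini-Hochberg adjustment over all of them; a call is an adjusted p under 0.05. Exact permutation tests, over 462 splits, used SciPy 1.17.1, and figures matplotlib 3.10.9 in Python 3.11.15. For a gene with several tested probe sets the brightest on average was used in lists. Tested on simulated data of 9560 probe sets, the Gsr-null against WT fit recovered 69% of planted changes of 1 and 94% of those of 2, and 2.98% of its calls were not planted.

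Named genes are all mu-class probe sets, Gsr, the called members of each list or else the one with the smallest p, the 10 measured genes on each side of the cluster and the 4 genes most like Gstm1 and Gstm3. A few further genes named with values, such as Ggct, Gsta3, Gstp1, Mgst1, Gclc, Gclm, Nfe2l2, Keap1, Cyp2c37, Cyp3a13, S100a8 and S100a9, were picked after their values were seen. The members and lists were chosen with earlier results of these data known. Alternatives covered the filter, the scaling, the variance model, array weights, moderation, the threshold, a replicate block, both 3′ to 5′ sets, probe sets per gene and the samples used.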

Additional observations from a re-analysis of the deposited data

Results flagged for a closer look

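In 2 of 28 groups of values, the 12 mu-class and 2 Gsr probe sets in each genotype, 1 sample stood far from the rest; chance would give 1.4. Gstm3 on 1427474_s_at read 8.71 in WT sample 4 while the other WT samples read 7.83 to 8.07, and without that sample its difference was 2.26 (limma adjusted p = 0.0323). Gstm6 on 1422072_a_at read 6.31 in Gsr-null sample 6 while the rest of its group read 7.16 to 7.59.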

How the results depend on the processing

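Gstm3 kept its direction in all 26 alternatives that gave a value, at 1.84 to 2.35, and lost its call in 12. Without moderation of the variances it was 2.11 (adjusted p = 0.15), with the replicate block over samples 1 to 5 of each genotype 2.31 (limma adjusted p = 0.0674), without Gsr-null samples 2 and 3 1.84, and within the lower and higher 3′ minus 5′ sets 1.97 and 2.21; in each of these 0 mu-class probe sets were called higher. Leaving out 1 sample gave 1.95 to 2.33 and 0 or 1 called. Without probe sets that can bind several transcripts Gstm3 was not tested and 0 were called. With the filter at 6 or 3 or none, and under both other scalings, Gstm3 stayed called (limma adjusted p between 0.0177 and 0.0415). Over all probe sets the 37 calls became 14 with the filter at 6, where fewer are tested, 10 without moderation, 3 with the replicate block, 7 without Gsr-null samples 2 and 3, 19 and 15 within the lower and higher sets, and 14 to 37 without 1 sample. Gsr fell by 1.71 within the lower set (limma adjusted p = 0.0862). Of 210 values of the other mu-class probe sets 207 kept direction and side; Gstm7 reversed to -0.0063 without WT sample 3 and within the higher set and to -0.0026 without Gsr-null samples 2 and 3, with leave-one-out values up to 0.0982. All 78 values of Gstm3 against the other members kept theirs. Apart from fewer samples or probe sets the causes were not tested. The shared replicate numbers gave no sign of pairing. Same-numbered WT and Gsr-null samples deviated with correlations of -0.243 to 0.0361, and 0 of 5 matched best with their own number. With so few samples this check cannot exclude a pairing. Check and block use the replicate numbers; by the bracketed numbers in the titles the genotypes share 4 and 5, whose samples correlated at 0.371 and 0.0259, and no block on those 2 pairs was fitted.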

Other observations

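Gsr-null samples 4 and 5, the highest pair of their group for Gstm2, Gstm4 and Gstm5, stood apart in many other genes. They were the highest pair in 18.7% of all 9560 tested probe sets and the lowest pair in 8.28%. Among 18 tested NRF2 targets other than glutathione transferases they were the highest pair for 9 and the lowest pair for none, and for 8 of 13 tested transferases of other classes they were the highest pair. Srxn1, which reduces overoxidised peroxiredoxins, read 8.58 and 8.72 there, while the rest of the group read 7.74 to 7.98 and WT samples 7.46 to 7.73. Nqo1, a quinone reductase that did not pass the filter, read 4.10 and 4.45 there. The rest of the group read 2.82 to 3.02 and WT samples 2.04 to 3.30. Osgin1, another NRF2 target, read lower there, 9.06 and 8.76, than in samples 1, 2 and 3, at 9.77, 10.41 and 9.96. Gsr-null sample 6 read 8.80, so samples 4 and 5 were not its lowest pair. Genes outside that list, which also did not pass the filter, stood apart too. Cyp2b9, a cytochrome P450, read 9.97 and 9.37 there, 1.78 to 2.60 in the rest of the group and 1.77 to 5.00 in WT samples. Hsd17b13, a lipid droplet protein, read 7.23 and 7.10 there, 3.18 to 4.06 in the rest and 3.26 to 3.87 in WT samples. Gstm3 differed from this order on 1427474_s_at only. There it read 10.87 and 10.68 in Gsr-null samples 2 and 3, and 10.33 and 11.06 in samples 4 and 5. On 1427473_at, near the filter level, samples 4 and 5 were the highest pair, at 5.02 and 5.14. Samples 2 and 3 read 4.52 and 4.56 on it.

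Gsr-null samples 1 and 6, the lowest pair for Gstm3 and Gstm4, had the highest values of Lcn2, a secreted acute phase protein, at 13.03 and 12.58, against 5.90 to 10.27 in samples 2 to 5 and 3.53 to 5.79 in WT. Vnn1, a pantetheinase, read 10.55 and 9.60 in Gsr-null samples 4 and 5, near the WT values of 8.84 to 10.05, and 3.15 to 4.26 in samples 1, 2, 3 and 6. These genes were set beside the members after their values were known, and no relation between them was tested.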
